A study of Mus musculus with 27 samples.

Results

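Genes that link the kidney to phosphate, vitamin D and calcium were followed over the whole range of ischemia times: Kl, Vdr, Cyp24a1, Cyp27b1, Calb1, Slc8a1, Trpv5 and Casr. They were chosen by symbol and make up 8 of the 19392 genes of the expression table, and all 8 passed the filter on low values. RNA of left kidney tissue of wild-type C57BL/6 mice was sequenced, 27 kidneys in all. The right kidney had been removed, and the left pedicle had then been clipped for 0, 16, 18, 20, 22, 24, 26, 28 or 30 min with the animal kept warm on a heated plate. The kidney was taken 24 h later. Each ischemia time holds 3 mice, and the 0 min group is the sham control, for which the labels' protocol also describes removal of the right kidney. Neither the age of the mice nor a shared surgery day for animals of the same replicate number is given in the sources used here.

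Klotho, encoded by Kl, is the co-receptor that lets FGF23, a hormone from bone, act on the tubule, where it lowers phosphate reabsorption, represses the vitamin D activating enzyme encoded by Cyp27b1 and induces the inactivating enzyme encoded by Cyp24a1. Active vitamin D binds the receptor encoded by Vdr, which induces Cyp24a1 and the calcium transport genes of the distal nephron. There, calcium enters through the TRPV5 channel, is carried by calbindin-D28k (Calb1) and leaves through the sodium-calcium exchanger NCX1 (Slc8a1), while the calcium-sensing receptor (Casr) acts mainly in the thick ascending limb.

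Levels are given as the deposited FPKM (fragments scaled by transcript length and by library size), which is per length and can be set side by side between genes. Differences are log2 fold changes of FPKM + 1 after quantile normalization, from limma's empirical Bayes fit over 18188 genes, and they understate the change of genes with low FPKM. A gene is said to have risen or fallen where the adjusted p was under 0.05, and it is called a differentially expressed gene (DEG) where the absolute log2 fold change was also above 1. The comparisons with 0 min all use the same 3 control kidneys.

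FPKM summed to 512453 to 554036 per kidney, and 16498 to 16904 genes were above 0. Tubule markers were present in every kidney. In bulk tissue, fewer cells of a type and less RNA per cell cannot be told apart. The summed FPKM of 10 proximal tubule markers was 3842 to 4268 at 0 min and 916 to 1058 at 30 min, that of 5 distal convoluted tubule markers was 303 to 350 at 0 min, 153 to 200 at 28 min and 155 to 262 at 30 min, that of 5 thick ascending limb markers was 1709 to 1870 at 0 min and 543, 535 and 2264 at 30 min, and that of 5 neutrophil markers was 5.14 to 9.96 at 0 min and 19.4 to 27.8 at 30 min. Slc34a1, Slc12a3 and Umod made up most of the proximal, distal convoluted and thick ascending limb sums at 0 min, with means of 2226, 216 and 1302 FPKM. The sums therefore need not show how the other markers moved. The part of the shifts in these sums in the results that follow was not tested. Markers of muscle, adrenal gland and T and B cells summed to at most 3.12 FPKM in each kidney of the 0, 26, 28 and 30 min groups. Fat markers summed to at most 0.9 FPKM in the 0, 16, 24, 26 and 28 min kidneys and to 0.99 to 5.25 FPKM at 30 min, but to 67.61 FPKM in 18 min replicate 1, 18.93 FPKM in 20 min replicate 1 and 52.38 FPKM in 22 min replicate 3, where Adipoq had 24.48, 7.03 and 19.34 FPKM. Leaving out each of these 3 kidneys in turn changed no call of the 8 genes.

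In the control kidneys, the order of the mean levels from high to low was Kl, Calb1, Vdr, Cyp24a1, Casr, Slc8a1, Trpv5 and Cyp27b1. Neighbours in this order overlapped between kidneys for Kl with 171 ± 13.4 FPKM (SD, n = 3) and Calb1 with 152 ± 29.8 FPKM, for Cyp24a1 with 19.1 ± 8.78 FPKM and Casr with 16.6 ± 1.47 FPKM, and for Slc8a1 with 8.07 ± 2.36 FPKM and Trpv5 with 6.61 ± 0.321 FPKM. At 30 min the order ran from Cyp27b1 through Cyp24a1, Calb1, Vdr, Kl, Trpv5 and Casr to Slc8a1. The gene with the lowest mean in the controls therefore had the highest mean at 30 min, and Kl, the gene with the highest mean in the controls, came after 4 others.

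**Figure D1:**
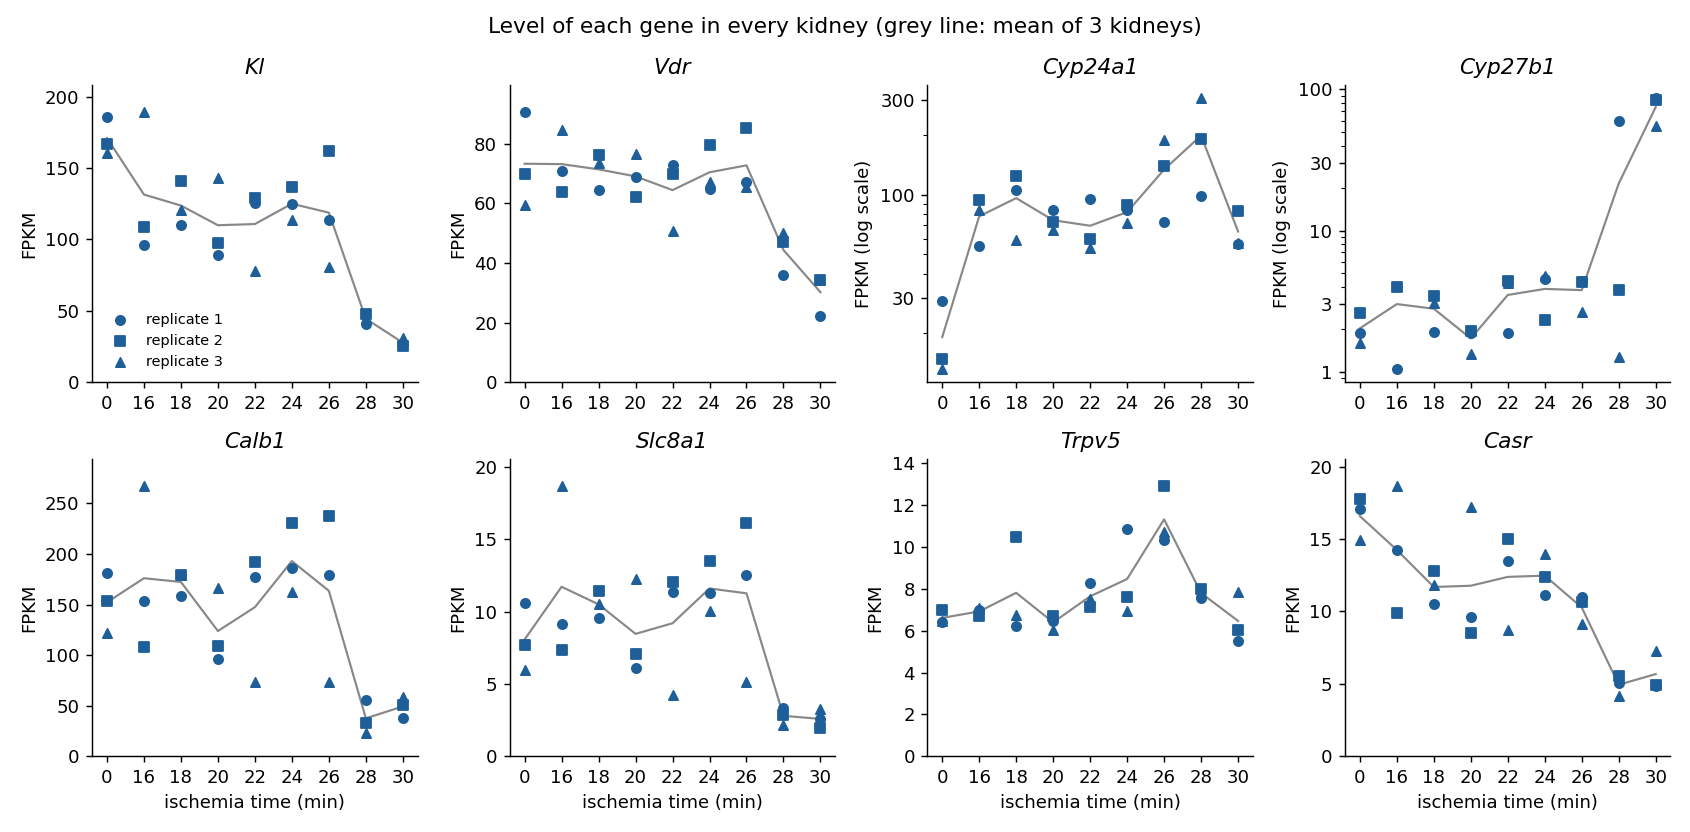
FPKM of each of the 8 genes (vertical axis, log scale for Cyp24a1 and Cyp27b1) in each of the 27 kidneys at the 9 ischemia times, spaced evenly on the horizontal axis; each symbol is 1 kidney and the grey line joins the means of 3. Kl, Vdr, Calb1, Slc8a1 and Casr drop between 26 and 28 min, Cyp24a1 is up from 16 min on, and Cyp27b1 is high in 1 kidney at 28 min and in all 3 at 30 min.

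Between 16 and 24 min only Cyp24a1 passed the test against 0 min, 1 of the 8 genes at each of the 5 times. Over all genes tested, the shares with an adjusted p under 0.05 were 19%, 27.8%, 22.8%, 28.8% and 28.3% for the 5 times in order, so that the share of the 8 genes was not above the background at these times. At 26 min Cyp24a1, Trpv5 and Casr passed, 3 of 8, with 30.1% of all genes called. At 28 min Cyp24a1 rose and Kl, Vdr, Calb1, Slc8a1 and Casr fell, which is 6 of 8 against 48.2% of all genes. The 5 that fell stand against 23.6% of all genes that fell, and the 5 DEGs among the 8 against 8.48% of all genes. At 30 min Cyp24a1 and Cyp27b1 rose and the same 5 genes as at 28 min fell, and these 7 of 8 were all DEGs, where 52.3% of all genes were called, 25.4% fell and 10.7% were DEGs. The DEG shares are over all 18188 genes, and the scale used understates the changes of those with low FPKM. As a background for genes at the level of the members they may therefore be too low. The shares called and fallen were larger among the 12929 genes reaching 1 FPKM in 3 or more kidneys. Of these, 38.9% were called at 26 min, 60.5% at 28 min and 63.9% at 30 min, beside 3, 6 and 7 members. The parts that fell were 29.1% at 28 min and 30.7% at 30 min. Beside genes of this level, the excess of called members was therefore smaller at 28 and 30 min. At 26 min the share of members called was not above that of these genes. The split of all calls moved with the scaling: 4460 genes rose and 4301 fell at 28 min, and 5600 and 3186 without quantile normalization, with 4895 and 4616 at 30 min becoming 5899 and 3715. The calls of the 8 genes at 28 and 30 min were the same under both. The median log2 fold change of the 8 genes was -1.05 at 28 min and -1.36 at 30 min, and the median of all genes was 0.00 at both.

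**Figure D2:**
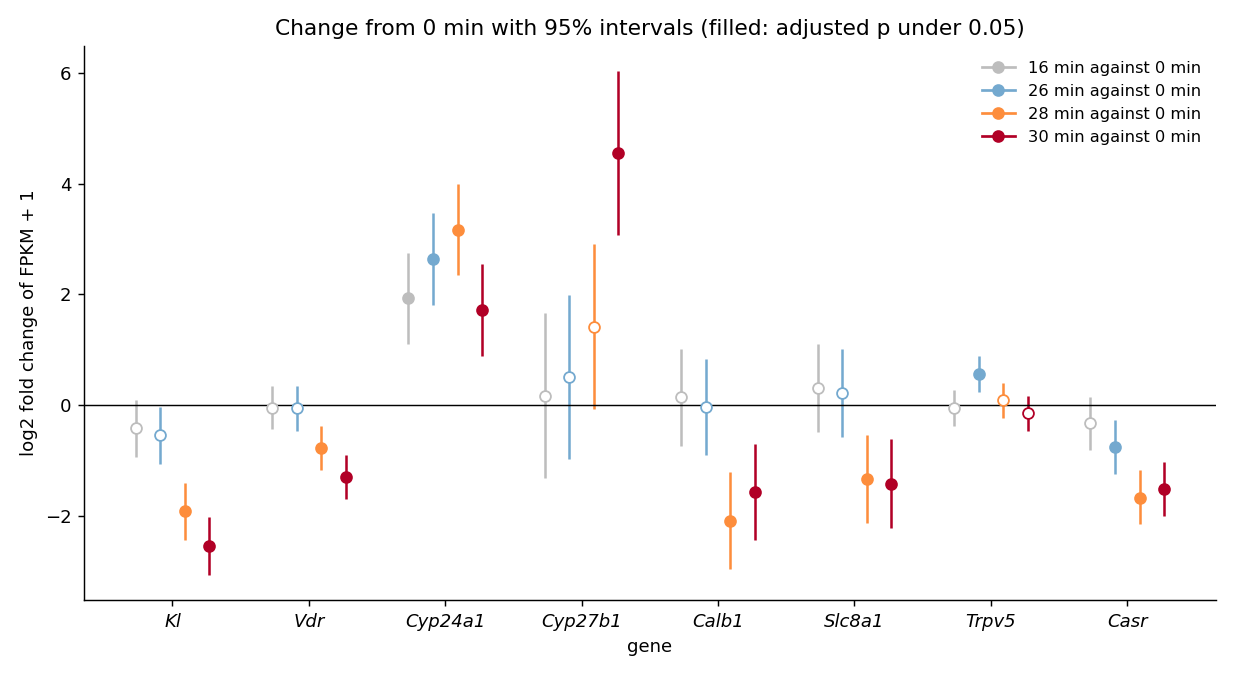
Log2 fold change of FPKM + 1 against 0 min (vertical axis) of the 8 genes at 16, 26, 28 and 30 min, with 95% intervals from limma; filled points have an adjusted p under 0.05. At 30 min the values run from -2.55 for Kl to 4.55 for Cyp27b1, and the interval of Trpv5 includes 0.

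The sequences just upstream of Kl, Vdr and Cyp27b1 are shown as those of the co-receptor and the vitamin D receptor, which fell, and of the activating enzyme, which rose. They are the 250 bases before the annotated start in RefSeq on GRCm38.p6, read 5′ to 3′ in the direction of the gene. Capitals mark GGGCGG, the core of a GC box, or its reverse complement CCGCCC, and TATAAA where present. The Kl stretch lies at chr5:150952357-150952606 on the plus strand, the Vdr stretch at chr15:97908297-97908546 on the minus strand and the Cyp27b1 stretch at chr10:127047996-127048245 on the plus strand.
Kl: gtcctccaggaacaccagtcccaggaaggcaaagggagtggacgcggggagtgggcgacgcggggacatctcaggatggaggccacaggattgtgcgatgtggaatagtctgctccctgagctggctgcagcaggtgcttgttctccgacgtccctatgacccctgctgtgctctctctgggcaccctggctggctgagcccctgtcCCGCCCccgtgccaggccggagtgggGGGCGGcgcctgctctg
Vdr: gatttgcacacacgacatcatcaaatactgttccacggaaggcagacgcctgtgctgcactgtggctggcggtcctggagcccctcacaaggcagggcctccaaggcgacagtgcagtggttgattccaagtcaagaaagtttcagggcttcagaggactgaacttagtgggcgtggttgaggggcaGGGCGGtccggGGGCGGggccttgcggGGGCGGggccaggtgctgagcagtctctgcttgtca
Cyp27b1: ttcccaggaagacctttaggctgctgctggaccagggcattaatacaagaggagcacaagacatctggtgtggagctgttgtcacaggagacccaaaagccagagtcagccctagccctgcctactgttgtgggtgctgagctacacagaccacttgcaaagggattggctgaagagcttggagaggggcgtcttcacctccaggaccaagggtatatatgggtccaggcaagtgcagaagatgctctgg
The Kl stretch held 2 GC box matches and 66.8% G and C, and the Vdr stretch held 3 matches and 61.2% G and C. The Cyp27b1 stretch held neither GGGCGG nor TATAAA and 54.4% G and C. Of the stretches not printed, those of Casr and Slc8a1, which also fell, held no GGGCGG, with 48.8% and 50.4% G and C. The Trpv5 stretch held no GGGCGG either, with 51.6% G and C, but it held 1 TATAAA, which none of the other stretches did. On either strand, GGGCGG was found in 32.7% and TATAAA in 12.4% of stretches of this length over all annotated promoters. Promoter windows were matched for 6 of the 8 genes, all but Cyp24a1 and Calb1. The AP-1 word TGAGTCA or its complement TGACTCA and the DR3 vitamin D response element were not found in any of these 6 windows, which reach 50 bases past the start, and were present in 5.2% and 0.256% of all 32851 promoters. The absence of a match says only that these letters are not in these windows.

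Kl lies at chr5:150952607-150993817. Its level in the 3 control kidneys was 186.12, 166.67 and 160.41 FPKM. At 26 min the kidneys had 113.91, 162.1 and 80.38 FPKM, at 28 min 41.04, 47.52 and 44.71 FPKM, and at 30 min 26.59, 25.63 and 30.93 FPKM. All 6 kidneys of 28 and 30 min were below each kidney of every shorter time, where the lowest had 77.9 FPKM. Kl fell by 1.91 on the log2 scale at 28 min (SE 0.25, adjusted p = 3e-06) and by 2.55 at 30 min (adjusted p = 4.7e-08), the latter a 5.86-fold lower value of FPKM + 1. Against 26 min the fall at 28 min was already -1.36 (adjusted p = 0.00084). The step from 28 to 30 min was -0.64 with an adjusted p of 0.099, although the 28 and 30 min kidneys did not overlap.

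From 16 to 26 min Kl had 77.9 to 189.35 FPKM, and 16 of these 18 kidneys were below the lowest control. The log2 fold change against 0 min was between -0.65 and -0.41 at these 6 times, and the adjusted p was between 0.057 and 0.271, so that none was called. This rested on the choice of kidneys: Kl passed at 16 min without replicate 3 (-0.70, adjusted p = 0.035), at 20 min without replicate 3 (-0.85, adjusted p = 0.026), at 22 min without replicate 2 (-0.77, adjusted p = 0.048) and at 26 min without replicate 2 (-0.82, adjusted p = 0.021).

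Vdr lies at chr15:97854427-97908296 and its level was flat until 26 min. The controls had 90.6, 69.64 and 59.48 FPKM, and the 18 kidneys from 16 to 26 min had 50.82 to 85.36 FPKM, of which 1 was below the controls and none above. At 28 min the values were 35.89, 47.06 and 49.98 FPKM, and at 30 min 22.09, 34.13 and 34.29 FPKM. The 6 kidneys of the longest times were all below the other 21. Vdr fell by 0.77 at 28 min (SE 0.19, adjusted p = 0.0022) and by 1.30 at 30 min (adjusted p = 9.1e-06). Against 26 min the difference at 28 min was -0.71 (adjusted p = 0.013). This last call was lost without 26 min replicate 2 (-0.58, adjusted p = 0.08) and without 28 min replicate 1 (-0.57, adjusted p = 0.077). The step from 28 to 30 min was -0.53 (adjusted p = 0.076), and without 28 min replicate 1 it was -0.67 (adjusted p = 0.044).

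The level of Kl relative to Vdr was lower at the longest times than in the controls. The ratio of Kl to Vdr in FPKM was 2.05 to 2.7 in the controls, 0.895 to 1.14 at 28 min and 0.751 to 1.2 at 30 min, so that the kidneys of the longest times did not overlap the controls. From 16 to 26 min the ratio lay between 1.23 and 2.24. This ratio was not tested.

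Cyp24a1, which encodes the 24-hydroxylase that breaks down active vitamin D, lies at chr2:170482957-170497145. It was the one member with a change at every time. The controls had 29.21, 14.88 and 13.25 FPKM, and the 16 min kidneys had 54.91, 94.2 and 83.92 FPKM. The 26 min kidneys had 73.05, 139.38 and 188.69 FPKM, the 28 min kidneys 98.67, 191.51 and 305.24 FPKM, and the 30 min kidneys 56.34, 82.18 and 56.84 FPKM. All 24 kidneys with ischemia were above the highest control, and the highest levels were reached at 28 min.

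Against 0 min, Cyp24a1 rose by 1.93 on the log2 scale at 16 min (SE 0.40, adjusted p = 0.0023), by 2.64 at 26 min (adjusted p = 7.8e-05) and by 3.17 at 28 min (adjusted p = 2e-06), and the rise at 30 min was 1.72 (adjusted p = 0.001). At 18, 20, 22 and 24 min the values were 2.15, 1.86, 1.74 and 1.99. Where only the 16 and 0 min groups were fitted, the 16 min value was 1.95 with an adjusted p of 0.068. From 28 to 30 min Cyp24a1 fell by 1.45 (adjusted p = 0.02), one of 2 members called in this comparison, against 13.2% of all genes. The 30 min kidneys were all below the 28 min kidneys. The call was lost without 28 min replicate 2 (-1.38, adjusted p = 0.071), without 28 min replicate 3 (-1.09, adjusted p = 0.125), without 30 min replicate 3 (-1.38, adjusted p = 0.088) and in a fit of these 2 groups alone (-1.41, adjusted p = 0.109). Cyp24a1 overlaps Pfdn4, a gene on the opposite strand, and whether the counting used strand is not given in the sources used here. Pfdn4 had mean levels of 11.1, 13.5, 18.4 and 17.3 FPKM at 0, 26, 28 and 30 min.

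Cyp27b1, which encodes the 1-alpha-hydroxylase of the proximal tubule that makes active vitamin D, lies at chr10:127048246-127054884. Its controls had 1.89, 2.59 and 1.6 FPKM, and the 18 kidneys from 16 to 26 min had 1.05 to 4.74 FPKM. At 28 min the values were 59.52, 3.82 and 1.28 FPKM, and at 30 min 86.41, 83.57 and 55.16 FPKM. One kidney at 28 min thus reached the level of the 30 min group, where the other 2 stayed near the level of the shorter times.

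Cyp27b1 rose by 4.55 on the log2 scale at 30 min (SE 0.71, adjusted p = 1.8e-05), the largest difference of the 8 genes in either direction at that time. Its mean at 30 min was 75.1 ± 17.3 FPKM against 2.03 ± 0.509 FPKM at 0 min (SD, n = 3 each). At 28 min the difference from 0 min was 1.41 with a 95% interval of -0.07 to 2.90 (adjusted p = 0.11), and it ranged from 0.02 to 2.35 when each kidney was left out in turn, with a call (adjusted p = 0.0067) at the upper end, without 28 min replicate 3. From 28 to 30 min Cyp27b1 rose by 3.14 (adjusted p = 0.0071), but 1 kidney of the 28 min group overlapped the 30 min kidneys. That difference was 4.53 without 28 min replicate 1, and it lost its call without 28 min replicate 3 (2.20, adjusted p = 0.051) and in a fit of the 2 groups alone (3.12, adjusted p = 0.175). The kidneys of 28 and 30 min as 1 group were 2.75 above those of 16 to 26 min (adjusted p = 9.8e-06), and 2.05 above them without 28 min replicate 1.

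Both enzymes act on vitamin D in opposite directions, and their messages did not move together. The ratio of Cyp24a1 to Cyp27b1 in FPKM was 5.75 to 15.5 in the controls and 12.8 to 70.7 in the 18 kidneys of 16 to 26 min. At 28 min the 3 kidneys had ratios of 1.66, 50.1 and 238, and at 30 min the ratio was 0.652 to 1.03. Within the 28 min group the kidney with the most Cyp27b1 had the least Cyp24a1, and the kidney with the least Cyp27b1 had the most Cyp24a1. Over the 27 kidneys the log values of the pair correlated with r = -0.00, and their deviations from the group means with r = -0.49. The 28 min kidneys, with 1.28 to 59.52 FPKM of Cyp27b1, had the widest log spread of any group and weigh most in the second value. That value was not computed without them, so it does not show an inverse relation within the other groups. These correlations describe kidneys that share their treatment groups.

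**Figure D3:**
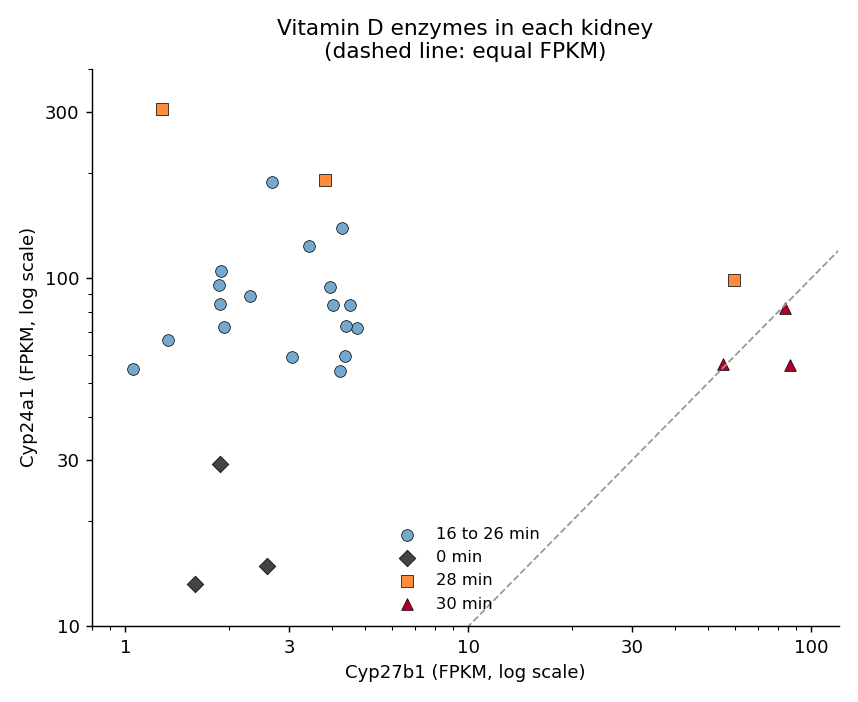
Cyp24a1 FPKM (vertical axis, log scale) against Cyp27b1 FPKM (horizontal axis, log scale), 1 point per kidney; the dashed line marks equal FPKM. The 30 min kidneys lie near the dashed line with ratios of 0.652 to 1.03, 1 of the 28 min kidneys lies beside them at 1.66, and the other 2 have ratios of 50.1 and 238, the latter above every kidney of the shorter times.

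Calb1, Slc8a1 and Trpv5 encode the buffer, exit and entry steps of calcium transport in the distal nephron, and of these 3 Trpv5 was not called at 28 or 30 min against 0 min. Calb1, at chr4:15881264-15906709, had 181.09, 153.9 and 121.51 FPKM in the controls. It had 179.63, 237.66 and 73.27 FPKM at 26 min, 55.98, 33.32 and 23.25 FPKM at 28 min, and 37.98, 50.71 and 59.02 FPKM at 30 min. The spread from 16 to 26 min was wide, 73.04 to 267.2 FPKM over 18 kidneys, with the lowest value in the kidney of 22 min that was high for fat markers, and the 6 kidneys of 28 and 30 min were below all of it. Calb1 fell by 2.09 at 28 min (SE 0.42, adjusted p = 0.00034) and by 1.57 at 30 min (adjusted p = 0.0034), and it fell by 2.05 from 26 to 28 min (adjusted p = 0.002). The difference between 30 and 28 min was 0.51 (adjusted p = 0.49).

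Slc8a1, at chr17:81373105-81738387, had 10.61, 7.67 and 5.94 FPKM in the controls. At 28 min it had 3.35, 2.87 and 2.17 FPKM and at 30 min 2.55, 1.92 and 3.27 FPKM, where the 18 kidneys of 16 to 26 min had 4.24 to 18.69 FPKM. No kidney of the 2 longest times overlapped with any other. Slc8a1 fell by 1.34 at 28 min (SE 0.38, adjusted p = 0.0065) and by 1.42 at 30 min (adjusted p = 0.0037). From 26 to 28 min it fell by 1.55 (adjusted p = 0.0074), a call that was lost without 26 min replicate 2 (-1.25, adjusted p = 0.056). Slc8a1 is also strongly used by heart muscle, and the 5 muscle markers summed to at most 0.66 FPKM in each kidney of the 0, 26, 28 and 30 min groups.

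Trpv5, at chr6:41651661-41681224, had its highest levels at 26 min. Its controls had 6.41, 6.98 and 6.44 FPKM, the 26 min kidneys 10.34, 12.91 and 10.7 FPKM, the 28 min kidneys 7.54, 7.99 and 7.85 FPKM and the 30 min kidneys 5.52, 6.02 and 7.85 FPKM. All 26 min kidneys were above the controls and above the 28 and 30 min kidneys. The 28 min kidneys were also all above the controls, and at 30 min 2 kidneys were below and 1 above them. Trpv5 rose by 0.56 at 26 min (SE 0.15, adjusted p = 0.0082). It then fell by 0.48 from 26 to 28 min (adjusted p = 0.033), which was called in only 2 of the 6 fits that left out 1 kidney: the call was lost without 26 min replicate 2 (-0.38, adjusted p = 0.158) and without 28 min replicate 1, 2 or 3 (adjusted p = 0.087, 0.074 and 0.073). Against 0 min the difference was 0.09 at 28 min (95% interval -0.23 to 0.40, adjusted p = 0.687) and -0.15 at 30 min (95% interval -0.47 to 0.16, adjusted p = 0.432). These intervals leave out a change the size of that in Calb1 or Slc8a1, though they do not show that Trpv5 was unchanged.

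Relative to the carrier, the channel message was higher at the longest times than in the controls. The ratio of Trpv5 to Calb1 in FPKM was 0.0354 to 0.053 in the controls, 0.135 to 0.338 at 28 min and 0.119 to 0.145 at 30 min. The highest ratio at shorter times was 0.146, in a 26 min kidney. The ratio of Trpv5 to Slc8a1 was 0.604 to 1.08 in the controls and 2.16 to 3.62 at 28 and 30 min, and no kidney of a shorter time exceeded 2.08. Slc8a1 and Calb1 moved over a narrower range, with a ratio of 0.0379 to 0.0933 over the whole series and 0.0489 to 0.0586 in the controls. The ratios were not tested.

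**Figure D4:**
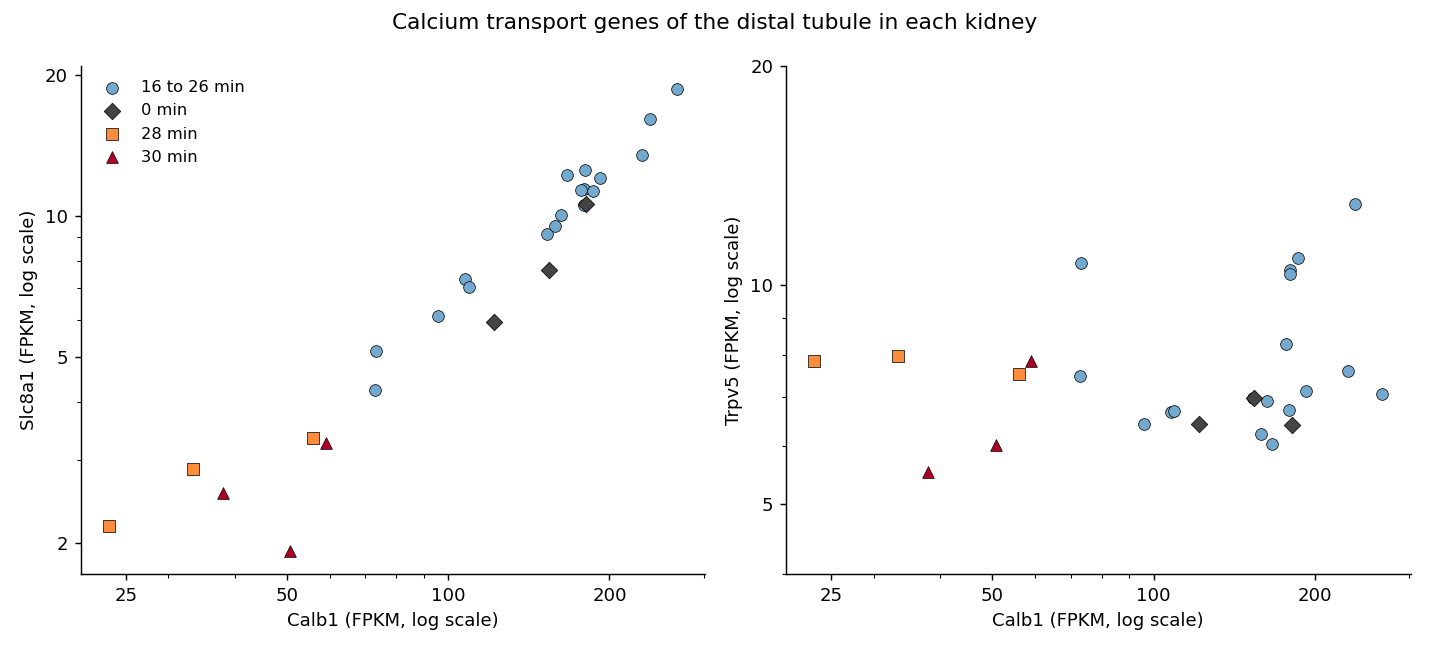
Slc8a1 FPKM (left, log scale) and Trpv5 FPKM (right, log scale) against Calb1 FPKM (horizontal axes, log scale), 1 point per kidney. Slc8a1 and Calb1 lie along a line from the 28 and 30 min kidneys to the shorter times, with r = 0.97 over 27 kidneys, whereas the Trpv5 values of the 28 and 30 min kidneys, 5.52 to 7.99 FPKM, lie on both sides of the controls, 2 below and 4 above.

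Casr, which encodes the receptor that senses extracellular calcium and reduces its reabsorption in the thick ascending limb, lies at chr16:36490585-36562141. The controls had 17.06, 17.76 and 14.93 FPKM and the 26 min kidneys 11.01, 10.66 and 9.15 FPKM. The 28 min kidneys had 5.08, 5.55 and 4.18 FPKM and the 30 min kidneys 4.87, 4.89 and 7.26 FPKM. Of the 18 kidneys of 16 to 26 min, 15 were below the lowest control, and all 6 of 28 and 30 min were below all others. Casr fell by 0.75 at 26 min (SE 0.23, adjusted p = 0.019), by 1.67 at 28 min (adjusted p = 7.1e-06) and by 1.52 at 30 min (adjusted p = 1.5e-05). Replicate 3 of 30 min, with the highest Casr of its group, also stood apart in the sum of thick ascending limb markers (2264 FPKM), and without it the 30 min value was -1.67 (adjusted p = 2.2e-05). The part of these markers in the Casr values was not tested. The 26 min call was lost without 0 min replicate 1 (-0.73, adjusted p = 0.052), 0 min replicate 2 (-0.70, adjusted p = 0.064) or 26 min replicate 3 (-0.68, adjusted p = 0.068), and where FPKM was rescaled to a constant sum (-0.64, adjusted p = 0.055). At 20 min Casr passed only without replicate 3 (-0.89, adjusted p = 0.0069).

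Of the comparisons of 26 with 16 min, 28 with 26 min and 30 with 28 min, the step from 26 to 28 min had the most members called. In that comparison 6 of 8 fell and none rose, where 19.3% of all genes were called and 8.52% fell. Among genes reaching 1 FPKM in 3 or more kidneys, 27.4% were called and 12.2% fell. Without 26 min replicate 2 only Kl, Calb1 and Casr fell, 3 of 8, where 11.3% of all genes were called and 4.99% fell. Among the 8 were 3 DEGs, against 1.5% of all genes, those of low FPKM included, and the median log2 fold change was -0.81 against 0.00 for all genes. Between 16 and 26 min limma called none of the 8 and 0% of all genes, and none of the 8 and 138 genes without 16 min replicate 2. At an unadjusted p under 0.05 limma picked 1 member, Trpv5 (adjusted p = 0.252), and 1717 genes in all. The 6 kidneys of 28 and 30 min were also set, as 1 group, against the 18 kidneys of 16 to 26 min. Cyp27b1 was called as risen and Kl, Vdr, Calb1, Slc8a1 and Casr as fallen, 6 of 8. Of all genes 52.1% were called and 22.5% fell. Among genes reaching 1 FPKM in 3 or more kidneys, 65.4% were called and 28.4% fell. Cyp27b1 was not higher in every kidney of the longest times. In 28 min replicates 2 and 3 it had 3.82 and 1.28 FPKM, within the 1.05 to 4.74 FPKM of 16 to 26 min. The 5 members that fell did not overlap between these times, with log2 fold changes of -1.70 for Kl, -1.84 for Calb1, -1.56 for Slc8a1, -1.05 for Casr and -0.92 for Vdr (SE 0.14 for Kl, adjusted p at most 5e-06). The share of all genes without overlap was not counted, so this count has no background. Cyp24a1 differed by 0.39 (adjusted p = 0.164), and by 0.61 without 28 min replicate 1 (adjusted p = 0.029), and Trpv5 by -0.15 (adjusted p = 0.171).

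Among the 5 falling genes, kidneys also deviated together within their groups. The deviations from the group means correlated with r = 0.93 for Calb1 and Slc8a1, 0.91 for Kl and Slc8a1, 0.80 for Kl and Calb1, 0.78 for Slc8a1 and Casr, 0.73 for Calb1 and Casr, and 0.72 for Kl and Casr, over 27 kidneys. The pairs with Vdr had 0.68 with Kl, 0.60 with Slc8a1, 0.59 with Casr and 0.53 with Calb1. Some segment markers did so too. The deviations of Slc12a3, the thiazide-sensitive transporter of the distal convoluted tubule, correlated with those of Calb1 (r = 0.84), Slc8a1 (r = 0.78) and Kl (r = 0.79). Those of Slc12a1, the loop transporter, correlated with those of Casr (r = 0.86). With Kl, Calb1 and Slc8a1 in order, Trpm6 had 0.90, 0.81 and 0.85 and the proximal tubule marker Slc34a1 had 0.73, 0.56 and 0.66. The thick ascending limb marker Umod had 0.14, 0.22 and 0.21 with them, and the collecting duct marker Aqp2 had -0.08, 0.12 and 0.10. Markers of the same segment differed: Slc12a1 had 0.43, 0.48 and 0.51 with these genes, and the proximal tubule marker Lrp2 had 0.49, 0.23 and 0.41. The deviations of Casr also correlated with those of Slc12a3 (r = 0.67), Trpm6 (r = 0.69) and Umod (r = 0.63). Slc12a3, Trpm6, Umod and Aqp2 lie outside the naming rule given below. For Trpv5 and Slc12a3 the value was 0.45. Genes measured in 1 kidney share its dissection and library, and the part of segment content in the members' values was not tested. Slc12a3 itself had 216 ± 8.68 FPKM at 0 min, 120 ± 18 FPKM at 28 min and 121 ± 38.7 FPKM at 30 min.

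The genes whose pattern over the 27 kidneys was most like that of each member differed between members. Kl was nearest to 4931406C07Rik and Slc22a22 (r = 0.977 each) and to Ass1, an enzyme of arginine synthesis (r = 0.976). Calb1 and Slc8a1 were nearest to each other (r = 0.965) and then both to Pgam2 and Pfkm, glycolytic enzymes. Casr was nearest to Egf (r = 0.976), Fads6 and Abca13, and Vdr to P3h2, Afm and Cpeb3. For Cyp27b1 the nearest were Ctxn3 (r = 0.937), Tmem252 and Slc25a45, and in the 28 min kidneys Ctxn3 had 7.76, 1.75 and 1.14 FPKM, so that the kidney high for Cyp27b1 was high for this gene too. Cyp24a1 was nearest to Nelfcd (r = 0.852), Ddias and Mtbp, and for Trpv5 no gene exceeded 0.694, the value of Clint1.

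The other genes of these pathways were counted from 4 lists. Of 12 genes of Klotho, FGF23 and parathyroid hormone reception, 2 rose and 5 fell at 30 min against 0 min (2 and 6 without quantile normalization), with a median log2 fold change of -0.07. Over all genes 52.3% were called and 25.4% fell at 30 min. Fgf23 itself had a mean of at most 0.0667 FPKM in every group. The phosphate transporters of the proximal tubule that FGF23 and parathyroid hormone reduce were among those that fell: Slc34a1 went from 2226 ± 179 to 440 ± 26.2 FPKM (-2.46, adjusted p = 1.3e-09) and Slc34a3 from 14.9 ± 2.39 to 2.46 ± 0.896 FPKM (-2.30, adjusted p = 8.7e-06). The parathyroid hormone receptor Pth1r changed by -1.16 and the FGF receptor Fgfr4 by -1.03. Adam10, a protease that can shed Klotho, rose by 0.45 (adjusted p = 9.3e-05), and it is named here after its value was seen.

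Of 16 genes of vitamin D uptake, activation and action tested, none rose and 9 fell at 30 min (1 and 9 without quantile normalization), with a median of -0.33. Beside them 52.3% of all genes were called and 25.4% fell. Lrp2, which encodes megalin, the receptor that takes up filtered vitamin D with its binding protein, went from 161 FPKM at 0 min to 22.6 FPKM at 30 min (-2.85, adjusted p = 1.3e-09). Cyp27a1, which encodes a 25-hydroxylase, fell by 1.54 (adjusted p = 1.4e-08). At 16 min 1 gene of this list had risen and 3 had fallen, which became 2 and 2 without quantile normalization, so that 4 of 16 were called beside 19% of all genes.

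Of 18 further genes of distal calcium and magnesium transport, 4 rose and 10 fell at 30 min, with a median of -0.53 (4, 9 and -0.30 without quantile normalization), and at 28 min 3 rose and 12 fell. Of all genes 52.3% were called and 25.4% fell at 30 min, and 48.2% were called and 23.6% fell at 28 min. The largest falls were those of Egf, which stimulates distal magnesium uptake (-5.27, adjusted p = 4e-07), and of Pvalb, a calcium buffer of the early distal convoluted tubule (-4.11, adjusted p = 1.7e-06). Cnnm2, a magnesium transport protein, changed by -1.13, and S100g, which encodes calbindin-D9k, by -1.09. Trpv6, the close relative of Trpv5, was low and rose from 0.63 to 2.16 FPKM (0.85, adjusted p = 0.00062), and it is named here after its value was seen.

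Of 14 genes of calcium reabsorption in the loop and of calcium sensing, 5 rose and 5 fell at 30 min (5 and 4 without quantile normalization), with a median of -0.40. Those that fell included Slc12a1 (-2.43, adjusted p = 0.00079), the potassium channel Kcnj1 (-1.61), the chloride channel subunit Bsnd (-1.79) and the claudin Cldn10 (-2.02). Cldn14, a claudin that restricts calcium passage and is a target of calcium-sensing receptor signalling, was among those that rose, from 0.133 to 1.01 FPKM (0.77, adjusted p = 0.04). It was chosen after its value was seen. The median log2 fold change of all genes was 0.00 at 30 min, and 52.3% of all genes were called.

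**Figure D5:**
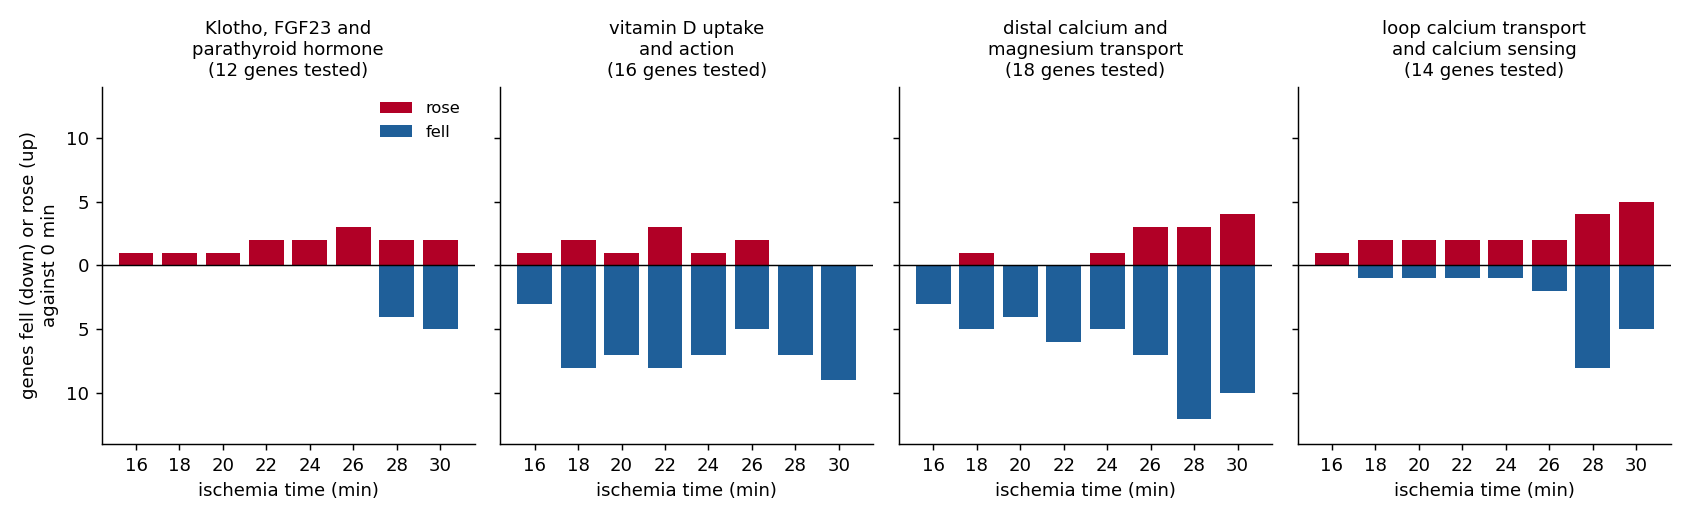
Number of genes of 4 pathway lists that rose (upward bars) or fell (downward bars) against 0 min at an adjusted p under 0.05 (vertical axis), at the 8 ischemia times (horizontal axis). In the distal calcium and magnesium list 12 of 18 genes fell at 28 min, beside 23.6% of all genes. In the vitamin D list 9 of 16 fell at 30 min, beside 25.4% of all genes.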

How the data were processed

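The deposited table holds FPKM per gene and kidney, rounded to 2 decimals, made by the authors; Bowtie2, RSEM, DESeq2 and GRCm38.p6 are named in the submitters' processing notes without roles or versions. Read depth per kidney cannot be had from these FPKM values. Values were quantile normalized as log2(FPKM + 1) and fitted with limma 3.58.1 (R 4.3.3; Python 3.11.15 for the rest): 1 mean per ischemia time over 27 kidneys, genes above 0 FPKM in at least 3 kidneys (18188), Benjamini-Hochberg adjustment over all of them. No 2 kidneys held identical values. In data simulated for 30 min against 0 min over 18188 genes, 198 of 200 genes planted at a log2 change of 2 were recovered and 8 unplanted genes were called. The planted genes had a mean log2(FPKM + 1) above 2. Each gene had normal noise of the same spread in every group, and no other gene was changed. Recovery for genes of lower level or of unequal spread, such as Cyp27b1, was not tested. Each library is the left kidney of 1 mouse.

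The 8 genes and the pathway lists were chosen with earlier results of these data known. From each list, at most 4 DEGs at 30 min with non-overlapping groups and the largest changes were named, and for each member the 3 genes with the highest Pearson correlation and a mean of at least 1 FPKM. Genes outside this rule are marked in the text. The GC box and TATAAA words were added after the data were seen. Group values are mean ± SD of 3 kidneys. Sequences are from RefSeq.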

Additional observations from a re-analysis of the deposited data

How the results depend on the processing

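Each comparison was refitted without quantile normalization, with FPKM rescaled to a constant sum, with pseudocounts of 0.1 and 0.01 FPKM, with other filters, with the replicate block, with only the groups compared, and without each kidney. Of 96 member comparisons 35 were called, and no called one changed sign. With only the groups compared, the numbers of members called against 0 min were 0, 3, 2, 2 and 3 for 16, 18, 20, 22 and 24 min (Kl was added at the last 4 times and Casr at 18 and 24 min) and 0 for 30 against 28 min. In these fits 0.409%, 29.3%, 21.2%, 32.2% and 30.2% of all genes were called, and 0% for 30 against 28 min. With a filter of at least 1 FPKM it was 2 for both 20 and 22 min, Kl being added, beside 29.9% and 37.2% of all genes. The construction of these fits (fewer samples, fewer genes) differs, and the cause was not tested further. Without each kidney in turn, members called against 0 min ranged from 1 to 2 for 16 min, 1 to 3 for 20 min, 1 to 2 for 22 min, 2 to 4 for 26 min and 6 to 7 for 28 min, stayed at 1 for 18 and 24 min and at 7 for 30 min, and ranged from 0 to 0 for 26 against 16 min, 3 to 6 for 28 against 26 min, 0 to 3 for 30 against 28 min and 6 to 7 for 28 and 30 against 16 to 26 min. The share of all genes called moved as well, from 9.44% to 28.5% for 16 min, 14.2% to 22.5% for 20 min, 11.3% to 18.8% for 28 against 26 min and 4.86% to 17.9% for 30 against 28 min. It was 19.4% to 24.1% for 18 min, 20.3% to 25.7% for 22 min, 20.1% to 25% for 24 min and 22.7% to 26.8% for 26 min. At the longest times it was 42.8% to 45.4% for 28 min, 47% to 50% for 30 min and 48.8% to 53% for 28 and 30 against 16 to 26 min. The Cyp27b1 difference between 28 and 26 min ranged from -0.48 (without 28 min replicate 1) to 1.85. Fgfr4 and S100g fell short of a log2 change of 1 without quantile normalization.

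The replicate numbers did not pair the kidneys: deviations of same-numbered kidneys correlated at -0.30 to 0.27, and in 0 of 11 comparisons were all above 0.1. With the replicate block, 7 members were called at 30 min against 0 min, 6 at 28 min and 1 at 16 min (Cyp24a1, 1.93, adjusted p = 0.0036), and no member call changed. With 3 kidneys per time and no read depth, small changes of genes near 1 FPKM are beyond these data.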

Other observations

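Other cell types could be read beside the calcium genes. Podocyte markers summed to 45.1 to 63.5 FPKM at 0 min and 77.6 to 135 FPKM at 30 min, and of the 5, Synpo rose by 1.27 on the log2 scale (adjusted p = 2.9e-05), Podxl by 0.85 and Wt1 by 0.84, by limma over all genes. Endothelial markers summed to 63.7 to 76.2 FPKM at 0 min and 85.8 to 134 FPKM at 30 min, with Pecam1 risen by 0.87 and Cdh5 by 0.78. Stromal markers were highest at 26 min of the 4 times compared, 113 to 156 FPKM against 34.9 to 38.7 FPKM at 0 min, 66.9 to 104 FPKM at 28 min and 35.4 to 101 FPKM at 30 min. That sum was carried by Col1a1 and Col3a1, with means of 51.5 and 55.6 FPKM at 26 min against 3.81 and 4.78 FPKM at 0 min, whereas Dcn went from 17.6 to 11 FPKM and Pdgfra from 4.09 to 4.34 FPKM. The sums were not tested.

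Further genes of the distal nephron were read at the longest time. At 30 min against 0 min Klhl3, an adaptor that targets WNK kinases for degradation, fell by 1.97 (adjusted p = 2.1e-07), whereas Wnk4, one of those kinases, had a log2 fold change of -0.10 (adjusted p = 0.724). Among collecting duct genes, the vasopressin receptor Avpr2 fell by 1.39 (adjusted p = 0.0021) and the water channel Aqp2 had a value of 0.15 (adjusted p = 0.827). These genes were chosen after their values were seen.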
